A study of Mus musculus with 6 samples.

Results

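The Slc30 genes encode the ZnT family of cation transporters, and the 10 members Slc30a1 to Slc30a10 were taken from the deposited counts as the rows whose Ensembl identifier has that symbol, 1 row each out of 41388 gene identifiers. Liver RNA had been taken from mice 6 weeks old on a C57BL x 129S6/SvEv background, whose chow held 16 ppm copper, 100 ppm zinc and 235 ppm iron. There were 3 Atp7b-/- libraries, from mice without the copper-transporting ATPase whose human counterpart is mutated in Wilson disease, and 3 wild type libraries. Atp7b-/- replicates 1 and 2, both labelled male, and wild type replicates 2 and 3, both labelled female, were read single-end. Atp7b-/- replicate 3, labelled female, and wild type replicate 1, labelled male, were read paired-end in a later round. Neither the disrupted part of Atp7b nor the number of animals behind a library is stated in the labels, so the p-values reflect differences among 6 libraries whose spread may be technical.

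ZnT proteins work as dimers and carry zinc out of the cytosol, either across the plasma membrane or into organelles, in exchange for protons. They act against the Slc39 (ZIP) importers, while metallothioneins bind the zinc that stays in the cytosol. ZnT1, the product of Slc30a1, exports zinc at the cell surface and is induced with the metallothioneins by the zinc-sensing factor MTF1. ZnT5 with ZnT6, and ZnT7, fill the early secretory pathway, ZnT9 serves mitochondria, and ZnT2, ZnT3, ZnT4 and ZnT8 fill vesicles of particular cell types. ZnT10 is known mainly as a manganese exporter, and is grouped with the zinc exporters here by family. In Wilson disease zinc is given as a treatment, because metallothionein induced by it in the gut holds back dietary copper.

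Total counts per library were 6746192 to 25973968 in Atp7b-/- and 5919389 to 23651080 in wild type livers, of which the 10 members together took 1804 to 13551 counts in Atp7b-/- and 894 to 8450 counts in wild type livers. Atp7b itself stood at 19.2, 13.7 and 13.3 CPM (gene counts relative to the TMM-scaled library total) in Atp7b-/- replicates 1 to 3, against 25.3, 85.2 and 59.7 CPM in replicates 1 to 3 of the wild type (log2 fold change -1.73, edgeR adjusted p = 0.02). Some libraries stood apart from their labels. Atp7b-/- replicate 3 is labelled female but held 126 CPM of the Y-linked gene Ddx3y and 0.482 CPM of Xist, the RNA of the inactive X chromosome. The other Atp7b-/- libraries, labelled male, held 0.117 and 0.702 CPM of Xist. Wild type replicate 3 is labelled female and held 28 CPM of Ddx3y beside 17.4 CPM of Xist. Xist stood at 1.01 CPM in wild type replicate 1 and 371 CPM in wild type replicate 2, and Ddx3y at 161 and 0.34 CPM. No Atp7b-/- library held more than 0.702 CPM of Xist, so sex by these RNAs was not balanced between the genotypes. Each paired-end library also held RNA of another tissue, by lists of markers chosen after the values were seen. The sum of 13 adrenal markers, among them the steroid enzymes Cyp11a1 and Cyp11b1, was 894 CPM in Atp7b-/- replicate 3, and in the other libraries 2.16 to 5.75 CPM in Atp7b-/- and 2.78 to 5.48 CPM in wild type. The sum of 10 markers of squamous epithelium and muscle, among them the keratins Krt4 and Krt13, was 845 CPM in wild type replicate 1, against 10.4 to 14.9 CPM in Atp7b-/- and 17.7 to 36.3 CPM in the other wild type libraries. The sum of 8 hepatocyte markers was 52857 to 71663 CPM in Atp7b-/- and 77119 to 110244 CPM in wild type livers, and none of the 8 was called. Alb made up most of that sum and overlapped between the genotypes, as did each of the others, and the log2 fold changes of Apob (0.04) and Serpina1c (0.10) were positive. The mitochondrial share of counts was 4.15%, 4.09% and 8.14% in Atp7b-/- replicates 1 to 3, against 7.74%, 2.57% and 2.5% in wild type replicates 1 to 3, highest in both paired-end libraries. In bulk tissue, fewer cells of a type and less RNA per cell cannot be told apart. How much these differences contribute to the values of the members was not tested, except where values without a library are given.

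No Slc30 member passed the test between the genotypes. Of the 10 members, 7 had enough counts to be tested and 3 (Slc30a2, Slc30a3 and Slc30a8) did not. The 7 were fitted together with all genes in edgeR's quasi-likelihood test with genotype and layout as terms, and a gene was called at a Benjamini-Hochberg adjusted p under 0.05 over 12988 genes, of which 2.49% were called, 1.9% as higher and 0.585% as lower in Atp7b-/-. Of the 7 members 0 were called, against 1 with an unadjusted p under 0.05 (Slc30a5; 14.5% of all genes), and DESeq2 and limma-voom also called 0. The log2 fold changes, Atp7b-/- over wild type, lay between -0.02 for Slc30a4 and 0.91 for Slc30a10. They were positive for 6 of the 7 members, and for 49.1% of all genes tested. The median was 0.39, beside -0.01 over all genes. The CPM ranges of the genotypes overlapped in each of the 7 tested members, while they did not overlap in 8.51% of all genes. In the single-end libraries alone, without the 2 libraries that carry RNA of another tissue, 0 of the 7 were called by edgeR, 1 had an unadjusted p under 0.05 (Slc30a9, edgeR adjusted p = 0.326), and all 7 log2 fold changes were positive, from 0.13 to 0.82. In these 4 libraries genotype and labelled sex coincide, so the 2 cannot be told apart there. Sex by Xist was not balanced over all 6 libraries either, and its part in the fit was not tested.

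**Figure D1:**
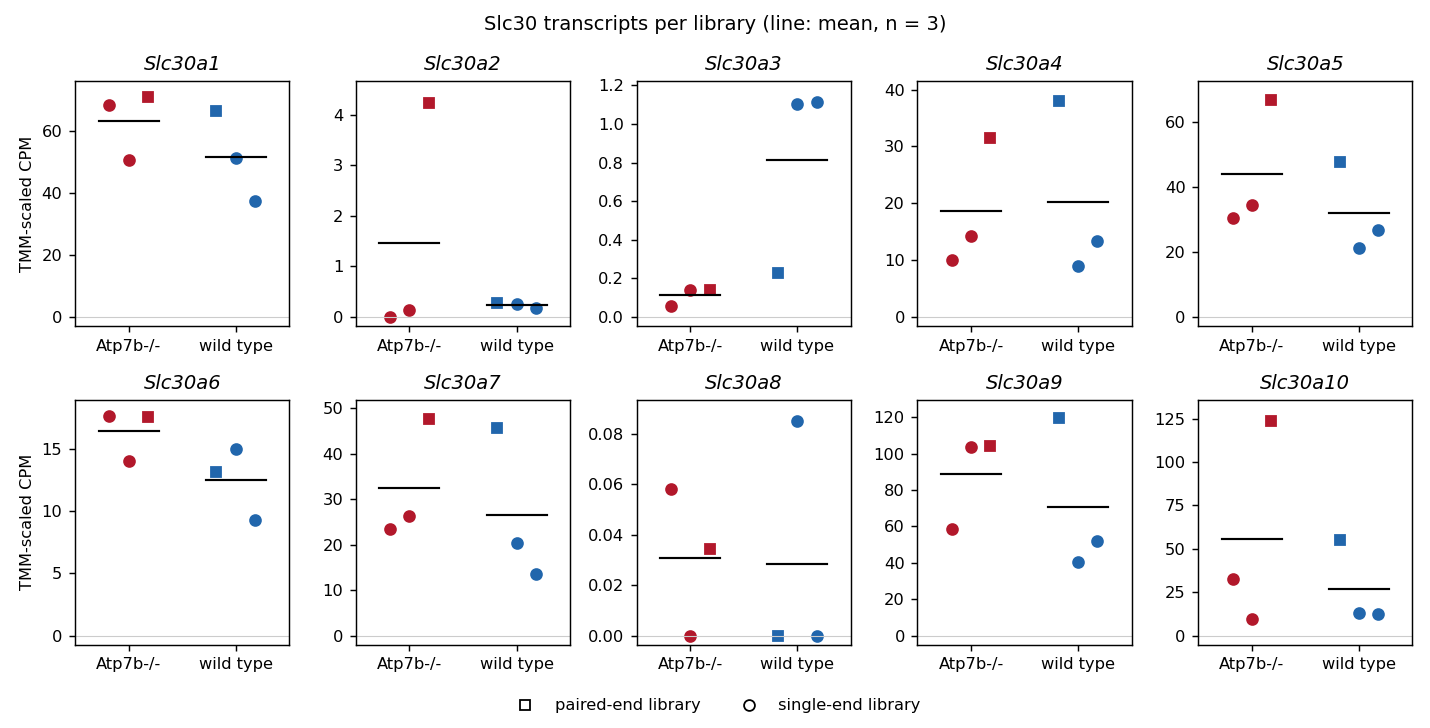
Level of each Slc30 member in TMM-scaled CPM, with Atp7b-/- libraries on the left and wild type libraries on the right of each panel. Squares are paired-end and circles single-end libraries, and lines are means of 3 libraries. The squares stand highest in both genotypes in 7 panels, all but those of Slc30a3, Slc30a6 and Slc30a8, and the genotypes overlap in every panel except that of Slc30a3, which rests on at most 13 counts a library.

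Slc30a1 (ENSMUSG00000037434, chromosome 1, 191906767 to 191913247, plus strand, GRCm38), the cell surface exporter, was not called, unlike the metallothioneins. It stood at 68.4, 50.5 and 70.8 CPM in Atp7b-/- replicates 1 to 3, against 66.5, 51.3 and 37.3 CPM in replicates 1 to 3 of the wild type. Wild type replicate 3 was the lowest of the 6 libraries, and Atp7b-/- replicate 2 lay below wild type replicates 1 and 2. The means were 63.2 ± 11.1 CPM in Atp7b-/- and 51.7 ± 14.6 CPM in wild type livers (SD, n = 3 each). The log2 fold change was 0.31 (SE 0.22, edgeR adjusted p = 0.568), with a 95% interval from -0.18 to 0.80. It was 0.16 both without Atp7b-/- replicate 1 and without wild type replicate 3. In the same fit Mt1 and Mt2, which bind zinc and copper, rose by 3.66 and 3.98 on the log2 scale (edgeR adjusted p = 0.0337 and 0.00101), and the lower ends of their 95% intervals were 2.22 and 3.17. Mtf1, which encodes the factor that drives Slc30a1 and both metallothioneins, stood at 26 ± 5.01 CPM in Atp7b-/- and 26.1 ± 2.79 CPM in wild type livers (log2 fold change -0.02, edgeR adjusted p = 0.978).

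The promoters of Slc30a1, Slc30a10 and Mt2 are shown because MTF1 is known to act through short metal response elements close to the start of its targets. The 250 bases before the RefSeq start (build GRCm38.p6) are given 5′ to 3′ on the strand of the gene, and capitals mark each match to the core TGCACNC or TGCGCNC on either strand. The positions are chr1:191906531-191906780 (plus strand) for Slc30a1, chr1:185454598-185454847 (plus strand) for Slc30a10 and chr8:94172368-94172617 (plus strand) for Mt2.
Slc30a1: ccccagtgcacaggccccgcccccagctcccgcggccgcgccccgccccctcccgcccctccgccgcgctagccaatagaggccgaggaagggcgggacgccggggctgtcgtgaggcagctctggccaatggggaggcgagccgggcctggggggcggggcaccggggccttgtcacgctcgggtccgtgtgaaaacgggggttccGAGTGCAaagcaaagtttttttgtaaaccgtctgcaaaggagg
Slc30a10: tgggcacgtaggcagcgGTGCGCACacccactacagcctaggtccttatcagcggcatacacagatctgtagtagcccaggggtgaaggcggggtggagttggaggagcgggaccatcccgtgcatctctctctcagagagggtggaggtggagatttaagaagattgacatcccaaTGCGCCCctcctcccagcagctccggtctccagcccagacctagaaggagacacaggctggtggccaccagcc
Mt2: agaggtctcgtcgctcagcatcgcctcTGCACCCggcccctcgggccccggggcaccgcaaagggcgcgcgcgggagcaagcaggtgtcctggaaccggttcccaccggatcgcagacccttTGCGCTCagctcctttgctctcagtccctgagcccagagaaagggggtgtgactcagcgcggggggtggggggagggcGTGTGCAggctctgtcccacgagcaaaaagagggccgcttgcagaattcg
Slc30a1 held 1 match, 43 to 37 bases before the start on the opposite strand, and Mt2 held 3. Within its own window Mt1, which also rose, held 1 match, as many as Slc30a1. Bases outside the windows were not searched, so these counts depend on the start used and are not totals of the sites near a gene. Slc30a10 held 2 separate sites, one of which matches on both strands in an overlapping run. A RefSeq window was found for 9 of the 10 members, and 6 of the 9 (Slc30a1, Slc30a2, Slc30a3, Slc30a4, Slc30a5 and Slc30a10) held at least 1 match in a window. Over all 27025 genes with a window the share was 23.8%. The window of Slc30a2 (chr4:134343216-134343465, plus strand) lies inside the annotated gene, which begins at 134343181, so its 2 matches are not before the gene. How many other genes have such a window was not counted. The members' windows were 53.2% to 82.8% G and C, and letters that match say nothing about binding.

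Slc30a10 (ENSMUSG00000026614, chromosome 1, 185454848 to 185468762, plus strand), which carries manganese out of hepatocytes into bile, had the largest fold change of the 7 tested members and the widest spread. It stood at 32.8, 9.4 and 124 CPM in Atp7b-/- replicates 1 to 3, against 54.8, 12.9 and 12.2 CPM in replicates 1 to 3 of the wild type. Atp7b-/- replicate 2 was the lowest of all 6 libraries and Atp7b-/- replicate 3 the highest. The paired-end Atp7b-/- library was thus 2.26 times the paired-end wild type one, and the mean of the single-end libraries was 21.1 CPM in Atp7b-/- and 12.6 CPM in wild type livers. The log2 fold change was 0.91 (SE 0.42, edgeR adjusted p = 0.388, 95% interval -0.08 to 1.91). Its call depended on 1 library and on the filter. Without Atp7b-/- replicate 2 the log2 fold change was 1.30 and the member was called (edgeR adjusted p = 0.0222), and without Atp7b-/- replicate 1 it was 0.37 (edgeR adjusted p = 0.922). Without Atp7b-/- replicate 3, the library with adrenal RNA, it was 0.78 (edgeR adjusted p = 0.579). Without a filter on low counts it was called at a log2 fold change of 0.95 (edgeR adjusted p = 0.00294), and over the 15 alternatives adjusted p ranged from 0.00294 to 1. The noncoding gene Gm2061 shares 533 exon bases with Slc30a10 on the opposite strand and had 7, 0 and 89 counts in Atp7b-/- replicates 1 to 3, against 17, 3 and 0 in wild type replicates 1 to 3. Without a stated strand setting, reads of the pair cannot be told apart. The same holds for Slc30a1, which shares 468 exon bases with the antisense gene 1700034H15Rik (at most 14 counts a library), and for Slc30a4, which shares 130 with 4930417H01Rik. Slc30a7 shares 1165 and 637 exon bases with the opposite-strand pseudogenes Gm6649 and Gm43106, which were not analysed here.

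**Figure D2:**
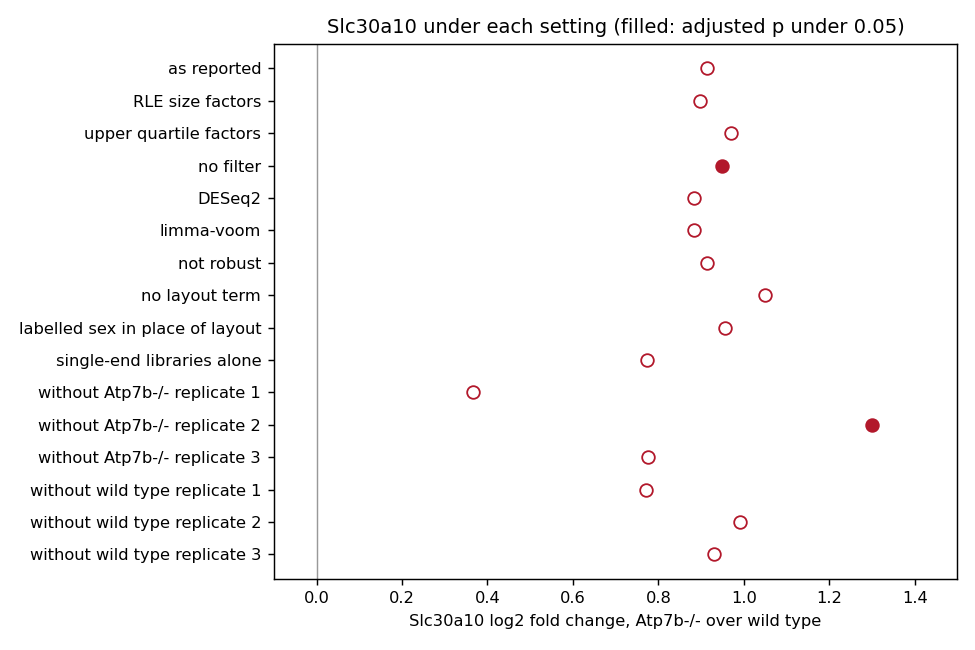
Log2 fold change of Slc30a10, Atp7b-/- over wild type, as reported (top) and under 15 alternatives, with filled points where the adjusted p was under 0.05. All values are positive, from 0.37 to 1.30, and 2 points are filled, without a filter and without Atp7b-/- replicate 2.

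The 3 members of the early secretory pathway had positive log2 fold changes of 0.37 to 0.45, and none was called. Slc30a5 (ENSMUSG00000021629, chromosome 13, 100802648 to 100833427, minus strand), whose protein pairs with ZnT6 to load zinc onto enzymes such as alkaline phosphatase, had the smallest p of the 7. It stood at 30.4, 34.5 and 66.9 CPM in Atp7b-/- replicates 1 to 3, against 47.9, 21.3 and 26.9 CPM in replicates 1 to 3 of the wild type. Within the paired-end pair and within the single-end libraries each Atp7b-/- value was above each wild type value, and the ranges overlapped only across layouts. Slc30a7 had the same order, and the share of all genes with it was not counted. The log2 fold change of Slc30a5 was 0.45 (SE 0.19), with an unadjusted edgeR p of 0.0389, an adjusted p of 0.311 and a 95% interval from 0.03 to 0.87.

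Slc30a6 (ENSMUSG00000024069, chromosome 17, 74395608 to 74424221, plus strand), which encodes the partner that does not itself carry zinc, stood at 17.7, 14 and 17.6 CPM in Atp7b-/- replicates 1 to 3, against 13.1, 15 and 9.27 CPM in replicates 1 to 3 of the wild type. The genotypes overlapped through Atp7b-/- replicate 2 and wild type replicate 2, and the means were 16.4 ± 2.08 CPM in Atp7b-/- and 12.5 ± 2.94 CPM in wild type livers. The log2 fold change was 0.39 (95% interval -0.16 to 0.94, edgeR adjusted p = 0.519), with 0.62 without wild type replicate 2 and 0.23 without wild type replicate 3. Slc30a7 (ENSMUSG00000054414, chromosome 3, 115938973 to 116007406, minus strand), which fills the Golgi, stood at 23.4, 26.4 and 47.7 CPM in Atp7b-/- replicates 1 to 3, against 45.7, 20.4 and 13.5 CPM in replicates 1 to 3 of the wild type. The paired-end libraries of both genotypes were close to each other, and both single-end Atp7b-/- libraries were above both single-end wild type ones. For Slc30a7 the log2 fold change was 0.37 (95% interval -0.14 to 0.88, edgeR adjusted p = 0.502), with 0.18 without wild type replicate 3.

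Slc30a9 (ENSMUSG00000029221, chromosome 5, 67306955 to 67358443, plus strand), whose protein takes zinc out of mitochondria, was lower in the paired-end Atp7b-/- library and higher in both single-end Atp7b-/- libraries than in wild type libraries of the same layout. It stood at 58.5, 104 and 104 CPM in Atp7b-/- replicates 1 to 3, against 120, 40.2 and 51.9 CPM in replicates 1 to 3 of the wild type. The paired-end Atp7b-/- library was 0.87 times the paired-end wild type one, while the single-end mean was 81.1 CPM in Atp7b-/- and 46 CPM in wild type livers. Over both layouts the log2 fold change was 0.47 (95% interval -0.21 to 1.15, edgeR adjusted p = 0.524). Leaving out replicate 2 gave 0.12 for the Atp7b-/- and 0.27 for the wild type library, and leaving out a paired-end library gave 0.83 for the Atp7b-/- and 0.82 for the wild type one. The difference between the layouts in the genotype change, paired-end minus single-end, was -1.02 on the log2 scale (SE 0.55), with an unadjusted p of 0.107 and an adjusted p of 0.987 in edgeR's test of that difference. Of all genes tested, 0.0154% were called for such a difference and 4.57% had an unadjusted p under 0.05. Of the 7 members, 0 were called by edgeR or by DESeq2 and 0 had an unadjusted p under 0.05. Layout crossed with genotype equals labelled sex here, so the 2 cannot be told apart. The label of Atp7b-/- replicate 3 did not match its Xist and Ddx3y values, so this term is not sex by expression.

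Among the vesicle members, Slc30a4 was the one with a clear liver signal. Slc30a4 (ENSMUSG00000005802, chromosome 2, 122681233 to 122702663, minus strand), which fills endosomal and lysosomal vesicles and in mice is needed for zinc in milk, stood at 9.97, 14.3 and 31.5 CPM in Atp7b-/- replicates 1 to 3, against 38.1, 9.01 and 13.3 CPM in replicates 1 to 3 of the wild type. The order followed the layout and not the genotype, and the single-end libraries of both genotypes interleaved. Its log2 fold change was -0.02 (95% interval -0.58 to 0.54, edgeR adjusted p = 0.982), and its sign turned under 7 of 15 alternatives.

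Slc30a2, Slc30a3 and Slc30a8, which serve secretory vesicles of pancreas and mammary gland, synaptic vesicles and insulin granules, were at the edge of detection. Slc30a2 (ENSMUSG00000028836, chromosome 4, 134343181 to 134354484) had 0, 1 and 123 counts in Atp7b-/- replicates 1 to 3, against 6, 3 and 1 counts in wild type replicates 1 to 3. Nearly all of its counts thus came from Atp7b-/- replicate 3, the library with 894 CPM of adrenal markers, and the part of that RNA in the Slc30a2 counts was not tested. Of 10 pancreatic acinar markers, Cpa1 and Pnlip had 0 counts in all 6 libraries, and 3 had enough counts to be tested. Of these Spink1 was called higher in Atp7b-/- (edgeR adjusted p = 0.0137). It had 16, 8 and 41 counts in Atp7b-/- replicates 1 to 3, against 1, 0 and 0 counts in wild type replicates 1 to 3. It passed the filter only through the Atp7b-/- libraries, which favours a call in that direction. Cela1 and Cela2a were not called (edgeR adjusted p = 0.387 and 0.299). The summed acinar level, 22 to 41.6 CPM in Atp7b-/- and 11 to 22.3 CPM in wild type livers, was nearly all Cela1. Slc30a3 (ENSMUSG00000029151, chromosome 5, 31086106 to 31108237) had 1, 1 and 4 counts in Atp7b-/- replicates 1 to 3, against 5, 13 and 6 counts in wild type replicates 1 to 3. In CPM these were 0.0583, 0.14 and 0.138 in Atp7b-/- and 0.229, 1.1 and 1.11 in wild type, so that the ranges did not overlap. Counting error can undo this order, since 3 counts in Atp7b-/- replicate 2 would be 0.421 CPM, above wild type replicate 1. The share of genes without overlap, 8.51%, covers tested genes only, and Slc30a3 is not among them. Without the filter on low counts the fitted log2 fold change of Slc30a3 was -2.35 (unadjusted p = 0.0168, edgeR adjusted p = 0.216). Slc30a8 (ENSMUSG00000022315, chromosome 15, 52295553 to 52335798) had 1, 0 and 1 counts in Atp7b-/- and 0, 1 and 0 counts in wild type replicates 1 to 3. A count of 0 allows up to 3 counts, which is 0.103 to 0.421 CPM in the Atp7b-/- and 0.137 to 0.556 CPM in the wild type libraries, so no difference in Slc30a8 was detectable at this depth. Of 7 islet markers 0 were tested. Ins2, Iapp and Gcg had 0 counts in all 6 libraries, and Chga, which the adrenal list also holds, had 1527 counts in Atp7b-/- replicate 3.

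Set against exon length, Slc30a1 had the highest mean level of the 10 members in these livers, and Slc30a2, Slc30a3 and Slc30a8 had the lowest. The mean over the 6 libraries, in CPM per kilobase of annotated exon, was 11 ± 2.52 for Slc30a1, 7.02 ± 7.55 for Slc30a10, 6.44 ± 2.69 for Slc30a9, 5.21 ± 2.3 for Slc30a5, 4.7 ± 1.02 for Slc30a6, 3.53 ± 2.24 for Slc30a4 and 2.66 ± 1.26 for Slc30a7 (SD, n = 6). Slc30a2 stood at 0.238 ± 0.466, Slc30a3 at 0.164 ± 0.177 and Slc30a8 at 0.015 ± 0.0184 CPM per kilobase. No neighbours in the order from Slc30a1 to Slc30a7 differed by more than the larger of their SDs. Slc30a1 ranked 1 in 5 of the 6 libraries and Slc30a10 in the remaining one, Atp7b-/- replicate 3. Slc30a10 ranged from rank 1 to rank 7. Without Atp7b-/- replicate 3, the library with adrenal RNA, its mean was 4.19 CPM per kilobase, below those of Slc30a9 (6.04), Slc30a6 (4.50) and Slc30a5 (4.42), and that of Slc30a2 was 0.048, below Slc30a3 at 0.187. By genotype, the level of Slc30a1 was 12.1 ± 2.11 CPM per kilobase in Atp7b-/- and 9.86 ± 2.79 in wild type livers (SD, n = 3 each). With the longest annotated transcript as the length, the order changed, and Slc30a9 came first at 13.9 CPM per kilobase, ahead of Slc30a1 at 11 and Slc30a5 at 9.5.

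**Figure D3:**
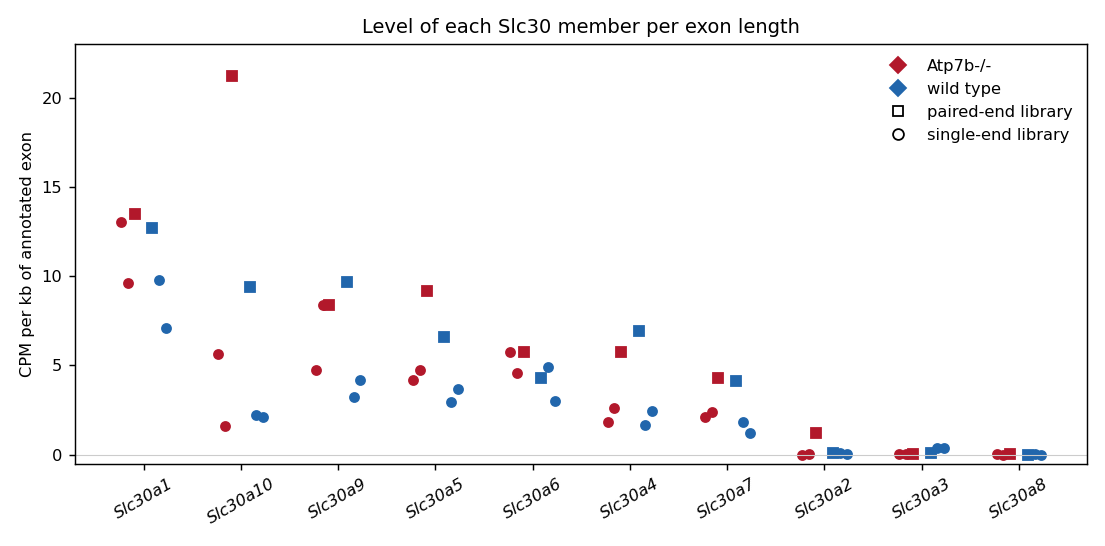
Level of each member in CPM per kilobase of annotated exon, ordered by the mean over 6 libraries, with Atp7b-/- libraries left of wild type libraries. Squares are paired-end and circles single-end libraries. Slc30a1 lies between 7.1 and 13.5 in all 6 libraries, Slc30a10 between 1.61 and 21.2, and the last 3 genes stay near 0.

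Calls for layout were more frequent than calls for genotype among all genes tested (52.8% against 2.49%), as they were among the members. In the same fit, 5 of the 7 tested members were called higher in the paired-end than in the single-end libraries (edgeR adjusted p under 0.05), as were 27.2% of all genes tested. In either direction 52.8% of all genes were called. This comparison was chosen after the values were seen. Slc30a10 was 5.04-fold higher in paired-end libraries (log2 2.33, SE 0.42, edgeR adjusted p = 0.00345), Slc30a4 3.01-fold, Slc30a7 2.27-fold, Slc30a5 2.03-fold and Slc30a9 1.86-fold, the last with an adjusted p of 0.0358. Slc30a1 stood at 0.42 (SE 0.22, edgeR adjusted p = 0.147) and Slc30a6 at 0.12 (SE 0.25, edgeR adjusted p = 0.712). The paired-end libraries are also those with adrenal and with squamous and muscle RNA, and layout and that RNA cannot be told apart.

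**Figure D4:**
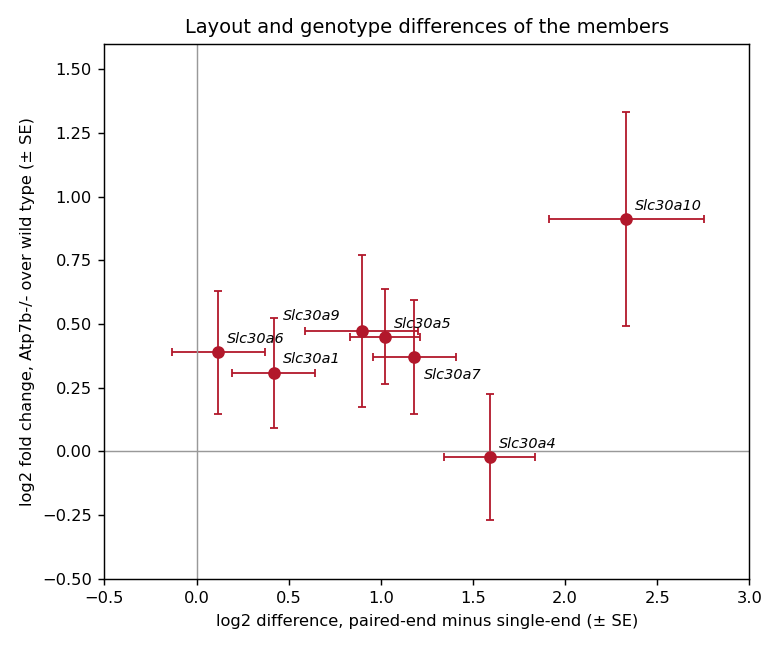
Log2 difference between layouts, paired-end minus single-end (horizontal), and log2 fold change between genotypes, Atp7b-/- over wild type (vertical), for the 7 tested members, with bars of 1 SE. The layout differences reach 2.33, for Slc30a10, and the genotype changes reach 0.91, for the same gene.

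The partners of the Slc30 genes in metal handling were read in lists written with earlier results of these data known. Of 14 Slc39 zinc importers 13 were tested, 0 were called by edgeR and 6 had a positive log2 fold change (median -0.03, beside -0.01 over all genes). The 3 with the smallest p were Slc39a14, Slc39a2 and Slc39a9. Slc39a14, which takes zinc, iron and manganese into hepatocytes, stood at 177, 167 and 113 CPM in Atp7b-/- replicates 1 to 3, against 242.8, 297.4 and 189.2 CPM in replicates 1 to 3 of the wild type. Every Atp7b-/- library was thus below every wild type library. The genotype ranges did not overlap in 3 of the 13 tested importers, this one among them, and in 8.51% of all genes tested. The log2 fold change of Slc39a14 was -0.70 (95% interval -1.24 to -0.17, edgeR adjusted p = 0.205). Slc39a2, a zinc importer of the cell surface, had a log2 fold change of -1.03 and was called without the filter on low counts (edgeR adjusted p = 0.21 and 0.0367), and Slc39a9, of the Golgi, one of 0.39 (edgeR adjusted p = 0.363). DESeq2 and limma-voom called 0 of the importers.

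Of 5 genes in a list of metallothioneins and Mtf1, 3 were tested and 2 rose, Mt1 and Mt2. Mt2 stood at 985, 1084 and 134 CPM in Atp7b-/- replicates 1 to 3, against 14.7, 64.8 and 34.7 CPM in replicates 1 to 3 of the wild type, with no overlap. Mt1 stood at 7207, 4323 and 421 CPM in Atp7b-/- replicates 1 to 3, against 26.5, 831 and 192 CPM in replicates 1 to 3 of the wild type, so that Atp7b-/- replicate 3 lay within the wild type range. Mt1 was not called in the single-end libraries alone (edgeR adjusted p = 0.133), nor without Atp7b-/- replicate 1, Atp7b-/- replicate 3 or wild type replicate 1 (edgeR adjusted p = 0.214, 0.151 and 0.145), while its log2 fold change in these 4 fits was 3.49 to 3.50. Beside these rises of at least 2.22 at the lower end of the interval, the upper end for Slc30a1 was 0.80 on the same log2 scale.

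Of 6 genes of manganese transport, which share Slc39a8 and Slc39a14 with the importers, 0 were called by edgeR, DESeq2 or limma-voom. Their median log2 fold change was -0.16. Atp13a1, which encodes a P-type ATPase of the endoplasmic reticulum, stood at -0.47 (edgeR adjusted p = 0.292) and Tmem165, of the Golgi, at -0.29 (edgeR adjusted p = 0.6). Of 5 enzymes that take up zinc in the secretory pathway, 0 were called by edgeR, 1 by DESeq2 and 0 by limma-voom. Enpp3, an ectonucleotidase, stood at 105, 52.9 and 97.5 CPM in Atp7b-/- replicates 1 to 3, against 79, 15.9 and 21.3 CPM in replicates 1 to 3 of the wild type. Its log2 fold change was 1.49 (SE 0.46, edgeR adjusted p = 0.2), with 1.01 to 2.10 when a library was left out, and DESeq2 called it (adjusted p = 0.0167). Alkaline phosphatase, Alpl, had a log2 fold change of 0.52 and Enpp1 one of -0.26 (edgeR adjusted p = 0.409 and 0.634).

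**Figure D5:**
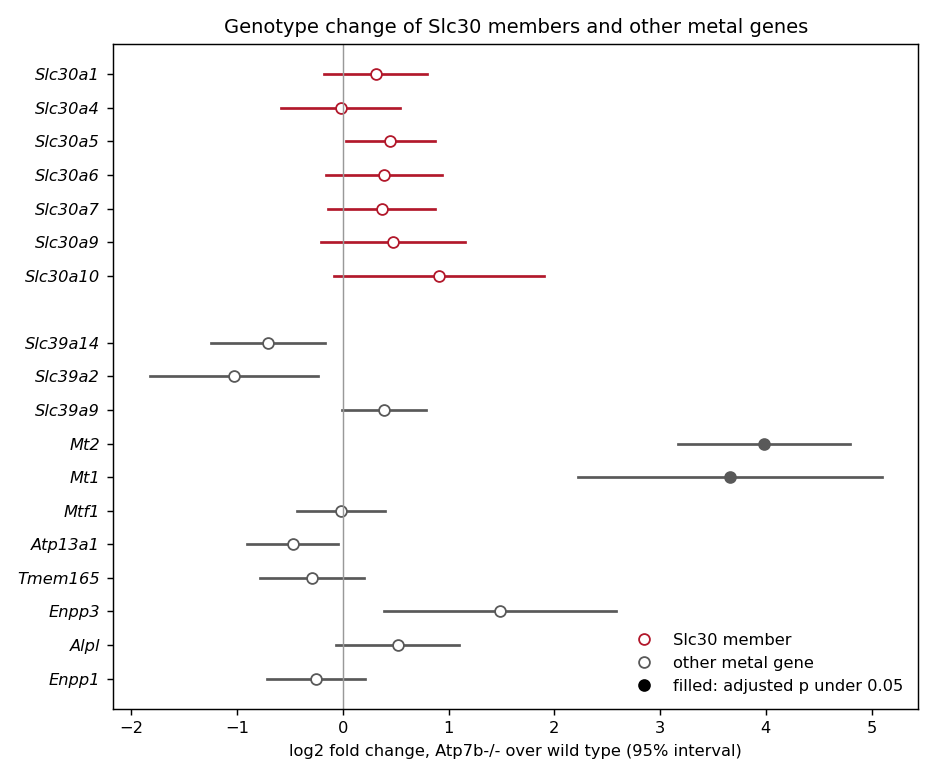
Log2 fold change, Atp7b-/- over wild type, with 95% intervals, for the 7 tested Slc30 members (red) and the named genes of the other metal lists (grey), filled where the adjusted p was under 0.05. Only Mt1 and Mt2 are filled, and the interval of Slc30a5 is the single one among the members that lies above 0.

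Likeness to other genes was measured as the root mean square difference between log2 CPM values, each gene centred on its own mean, over the 6 libraries and 12317 genes. The profiles most like that of Slc30a5 were those of Fundc2 (0.08), 4930430F08Rik (0.10) and Polr2b (0.10). Those most like Slc30a1 were Pcbd1 (0.05), Caml (0.06) and Zadh2 (0.08). None of these 6 genes was called between genotypes by edgeR (adjusted p = 0.306 to 0.739). They were picked for likeness, in the same 6 libraries, to members that were not called, so this is no separate result. All genes share the differences in layout and depth between the libraries, which such a measure also follows.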

How the data were processed

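Liver RNA was sequenced in 3 Atp7b-/- and 3 wild type libraries. The values deposited by the authors are unnormalized gene counts in a single table. STAR 2.4, featureCounts, edgeR 3.8 and the build GRCm38 are named, per the submitters' processing notes. Strand setting, multi-mapping reads and read pairs: not given in the sources used here. Symbols, positions and exon lengths came from GENCODE M21 (GRCm38), which named 40340 of 41388 identifiers, and promoter sequences from RefSeq (GRCm38.p6).

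The test was edgeR 4.0.16 in R 4.3.3: TMM factors, its expression filter at 10 counts, a robust fit of layout and genotype by quasi-likelihood, and Benjamini-Hochberg adjustment over 12988 genes. SEs are the absolute log2 fold change over the square root of F, and 95% intervals use the degrees of freedom of that test. Floors of 3 counts cover counting error only. DESeq2 1.42.0 and limma 3.58.1 (voom) were alternatives. The fit was tested on simulated data. The numbering of replicates comes from accession order and gives no pairs. Named were all members, and of each pathway list the called genes and the 3 with the smallest p. The members and lists were chosen with earlier results of these data known, and the adrenal and the squamous and muscle lists after the values were seen. Besides the lists named above, markers of 7 other cell types were read and none was called.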

Additional observations from a re-analysis of the deposited data

Results flagged for a closer look

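Slc30a2 drew attention because its CPM values in the genotypes were ordered differently in the layouts, on few counts. The paired-end Atp7b-/- library stood at 3.95 on the log2 scale above the paired-end wild type library, with 123 counts against 6, which compares 1 library with 1. The single-end libraries had 0 and 1 counts in Atp7b-/- and 3 and 1 counts in wild type, all at or under the floor of 3 counts, so no direction can be read there. The difference was not tested in the filtered fit, which left Slc30a2 out. Without the filter its size was 6.11 (edgeR unadjusted p = 0.00173, adjusted p = 0.191).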

How the results depend on the processing

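Of the members, 1 was called without the filter on low counts and 0 to 1 when a library was left out, in each case Slc30a10, against 0 in the reported fit. No other alternative called a member. Slc30a4 changed sign with upper quartile factors (0.032), without the filter (0.013), in the single-end libraries alone (0.13) and over the leave-outs (-0.20 to 0.14), as did Mtf1 (0.031, 0.014, 0.075 and -0.077 to 0.083).

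The number of genes called among all was 323 as reported, 1116 without the filter, 770 with DESeq2, 126 in the single-end libraries alone and 119 to 323 over the leave-outs (119 without Atp7b-/- replicate 3, 131 without wild type replicate 1 and 208 without Atp7b-/- replicate 1). It was 0 in edgeR when layout was left out or replaced by labelled sex, where 545 and 381 genes had an unadjusted p under 0.05. Called metallothioneins numbered 0 in these 2 fits, although without layout the log2 fold changes were 4.27 for Mt2 and 3.51 for Mt1, 3 without the filter, where Mt4 (210 counts in wild type replicate 1, 0 elsewhere) was called lower, 1 in the single-end libraries alone and 1 to 2 over the leave-outs. Without the filter 1 zinc importer was called (Slc39a2). Of the secretory enzymes 1 was called without the filter and with DESeq2 (Enpp3), and 0 to 1 over the leave-outs (Nt5e, without wild type replicate 2). A genotype change that differed between layouts was called in 2 genes as reported, 65 with DESeq2 and 159 without the filter, none of them a member. With the longest transcript as length, the mean level was 9.5 CPM per kilobase for Slc30a5, 6.73 for Slc30a6 and 13.9 for Slc30a9.

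No paired analysis was possible because the replicate numbers follow the order of deposition. The cause of the lost calls was not tested. Slc30a2, Slc30a3 and Slc30a8 had too few counts for the test with all 6 libraries. Slc30a3 passed the filter in 4 leave-outs, those of wild type replicate 1 and of each Atp7b-/- library. Its log2 fold change there was -3.58 to -1.65, and it was not called (edgeR adjusted p = 0.202 to 0.762). It passed only through wild type replicates 2 and 3 (1.1 and 1.11 CPM), while each Atp7b-/- library held at most 0.14 CPM. A filter passed through the higher group favours a difference, so these fits are no support for one.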

Other observations

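Slc30a2 was one of 26 genes in Atp7b-/- replicate 3 with at least 100 counts and a CPM at least 10 times that of every other library, and ranked 25 of them by CPM. The list, drawn after its values were seen, was led by Hsd3b1 (196 CPM, against at most 3.06 elsewhere), Star (141 CPM), Cyp11a1 (139 CPM), Cyp21a1 (128 CPM) and Chgb (108 CPM), genes of steroid synthesis and of chromaffin granules. The same rule gave 0 genes in Atp7b-/- replicate 1, 1 in Atp7b-/- replicate 2, 60 in wild type replicate 1, 19 in wild type replicate 2 and 0 in wild type replicate 3, and Slc30a2 was the single Slc30 member that it named in Atp7b-/- replicate 3.

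The share of Slc30a10 in the summed CPM of the 10 members was 13.6%, 3.71% and 26.5% in Atp7b-/- replicates 1 to 3, against 14.2%, 7.52% and 7.38% in wild type replicates 1 to 3. That of Slc30a5 stayed between 12.6% and 14.3% in Atp7b-/- and between 12.4% and 16.2% in wild type libraries.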
